A study of Mus musculus with 12 samples.

Results

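Hspa1a and Hspa1b, the 2 stress-inducible members of the mouse HSP70 chaperone family, and the pseudogene Gm8696 beside them on chromosome 17 were followed in mouse brain after 5-aminolevulinic acid (5-ALA) photodynamic therapy (PDT). These 3 of the 54532 genes of the deposited expression table were chosen by their FPKM levels (a level scaled by gene length and library depth) in earlier results of the same data, and their rows were found by gene name. Their levels below are therefore a description without a test. RNA sequencing covered 12 libraries in 4 groups of 3. In the treated groups, mice were given 5-ALA at 20 mg/kg, a heme precursor that cells turn into the light-activated pigment protoporphyrin IX. After 30 min they were exposed to a 635 nm laser at 20 J/cm2 (the labels write J/cm), and brains were collected after perfusion with saline 1.5 h, 12 h or 48 h later. The control group is titled PBS and labelled untreated. Whether these mice were injected or lit is not stated, and no group with 5-ALA alone or light alone is among these libraries. All labels name both BALB/c and C57BL/6, with no brain region and no age. The labels do not say that the libraries of a group came from separate animals, so the errors measure the spread between libraries. All 6 neuron, 5 astrocyte, 5 oligodendrocyte and 5 microglia markers were above 0.5 FPKM in all 12 libraries.

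HSP70 proteins bind unfolded stretches of other proteins and release them again in a cycle driven by ATP hydrolysis. J-domain co-chaperones of the DNAJ family deliver the clients and stimulate the ATPase, and nucleotide exchange factors such as HSP110 and the BAG proteins let the client go. Hspa8 encodes the constitutive HSP70 that is abundant in neurons at all times, whereas Hspa1a and Hspa1b are kept low in unstressed brain. When unfolded or oxidised protein accumulates, heat shock factor 1 (HSF1) is released from chaperones, forms trimers and binds heat shock elements, which are arrays of inverted GAA units in the promoters of these genes. Both genes lack introns, so their messages need no splicing.

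The 250 bases before the transcription start are shown because the control of these genes is known to lie there, and because both promoters are nearly identical. They are from RefSeq on GRCm38.p6, minus strand, chr17:34972157-34972406 for Hspa1a and chr17:34959239-34959488 for Hspa1b. Capitals mark matches to GAANNTTC (a pair of head-to-head units of the heat shock element), CCAAT (read as ATTGG on the strand shown) and GGGCGG (a GC box).
Hspa1a: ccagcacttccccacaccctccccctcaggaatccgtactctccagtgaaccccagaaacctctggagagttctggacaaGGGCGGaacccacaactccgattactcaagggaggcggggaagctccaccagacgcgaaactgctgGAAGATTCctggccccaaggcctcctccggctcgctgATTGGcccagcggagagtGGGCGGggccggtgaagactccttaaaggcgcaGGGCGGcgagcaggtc
Hspa1b: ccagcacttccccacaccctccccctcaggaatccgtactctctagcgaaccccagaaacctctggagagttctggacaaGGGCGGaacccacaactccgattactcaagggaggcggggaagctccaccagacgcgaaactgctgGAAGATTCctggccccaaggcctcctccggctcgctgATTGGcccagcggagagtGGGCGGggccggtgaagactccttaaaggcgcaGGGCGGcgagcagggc
The windows differed at 3 bases, C44T, T47C and T249G (the Hspa1a base, its position from 1 at the 5′ end of the window, the Hspa1b base), and were 98.8% identical. None of the 3 lies in a capital stretch. Each window held GAANNTTC once, at -104 to -97 from the start, and CCAAT once, at -67 to -63. GGGCGG stood at -170, -49 and -16 in both. Searched on both strands in 32851 RefSeq promoter windows of this length, GAANNTTC was present in 6.69%, CCAAT in 33.8% and GGGCGG in 32.7%, with 16.7% holding at least 2 GC boxes. The tail-to-tail form TTCNNGAA (7.17% of windows), the longer heat shock element of GAANNTTC followed by NNGAA (0.466%) and TATAAA (12.4%) had no match in either window. A match is only a match of letters, and no binding was measured.

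Both genes have 1 exon on the minus strand. Hspa1a (ENSMUSG00000091971) spans chr17:34969190-34972156 with 2967 bases and Hspa1b (ENSMUSG00000090877) spans chr17:34956436-34959238 with 2803 bases, 9951 bases apart. Their GENCODE M21 coding parts, 1923 and 1926 bases long, aligned with 8 mismatches and 3 gapped positions, which is 99.43% identity, and the longest identical run was 638 bases. The 5′ untranslated parts were 98.7% identical over 231 bases. The 3′ untranslated parts, 813 bases in Hspa1a and 646 in Hspa1b, were 49.12% identical, with no identical run over 27 bases. A stretch near the end of the coding part is shown because it holds the 3 gapped positions, and it is not typical of the rest. It lies at chr17:34970005-34970094 in Hspa1a and chr17:34957084-34957176 in Hspa1b, minus strand. Capitals mark the bases that differ or are gapped in the other copy.
Hspa1a: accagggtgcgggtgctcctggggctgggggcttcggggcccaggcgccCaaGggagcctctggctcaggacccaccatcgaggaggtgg
Hspa1b: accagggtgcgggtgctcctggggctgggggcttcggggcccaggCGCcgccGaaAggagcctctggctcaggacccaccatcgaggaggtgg
Of all 100-base words of the Hspa1a transcript, 47.1% also occur in Hspa1b, and of those of Hspa1b, 49.9% occur in Hspa1a. At 50 bases the shares were 58.8% and 62.3%. How the authors treated reads that fit both genes is not given in the sources used here, so the level of each copy is uncertain. Their sum is uncertain too if such reads were left out or counted for both. Against the Hspa8 transcript the Hspa1a coding part was 75.0% identical.

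Gm8696 (ENSMUSG00000092557, chr17:34954328-34954712, minus strand, 385 bases, 1 exon) is annotated as a processed pseudogene. It lies 1723 bases beyond the 3′ end of Hspa1b on the same strand. Its sequence is shown beside that of Snu13, a gene on chromosome 15 for a small nuclear ribonucleoprotein of the spliceosome, because Gm8696 aligned with a Snu13 transcript over all 385 columns at 97.4% identity and with neither HSP70 gene over more than 26. The first 60 bases are given, with capitals where the sequences differ.
Gm8696: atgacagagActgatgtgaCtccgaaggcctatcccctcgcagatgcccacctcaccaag
Snu13: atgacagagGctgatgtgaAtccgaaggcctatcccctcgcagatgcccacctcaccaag
The longest identical run between them was 101 bases.

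The libraries held 15348579 to 17444654 reads recovered from the deposited values. At 1.5 h, replicates 1 and 3 stood apart from the other libraries. Their levels ran lower in longer genes: the log2 level changed by -0.104 and -0.0598 with each doubling of length, against 0.0281 in 1.5 h replicate 2 and 0.0274 to 0.0413 in controls. Mitochondrial reads took 12.4% and 9.14% of these libraries, against 4.16% to 6.02% in controls. The main changes at 1.5 h that rest on them are given with and without them. The median change of the pathway list, the counts at an unadjusted p and the marker sums are given with them only.

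Hspa1a and Hspa1b were low in controls, higher at 1.5 h and highest at 12 h, and at 48 h they were again at a few FPKM, in a range that overlapped that of the controls. Hspa1a had 111.2, 172.5 and 99.39 FPKM at 1.5 h, 1501, 1422 and 1378 FPKM at 12 h and 1.889, 2.522 and 3.679 FPKM at 48 h, against 1.324, 2.349 and 2.718 FPKM in controls. The 12 h libraries were all above the 1.5 h libraries and these all above the controls, while the range of the 48 h values overlapped that of the controls, with replicate 4 above all controls. Of all genes tested, 14.6% had every 1.5 h library and 28.2% every 12 h library above every control, and 21.7% had every 12 h library above every 1.5 h library. The group means were 127.7 ± 39.2, 1434 ± 62.6 and 2.697 ± 0.907 FPKM at 1.5 h, 12 h and 48 h and 2.13 ± 0.722 FPKM in controls (SD, n = 3 each). The 1.5 h mean was 59.95 times and the 12 h mean 673.2 times the control mean, and the 12 h mean was 11.23 times the 1.5 h mean. At 48 h the mean was 1.266 times that of the controls.

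Hspa1b was the higher of the copies in 11 of 12 libraries. It had 151.4, 249.4 and 135.5 FPKM at 1.5 h, 2307, 2137 and 2117 FPKM at 12 h and 1.885, 4.755 and 3.989 FPKM at 48 h, against 2.226, 3.558 and 3.509 FPKM in controls. The order of the groups was that of Hspa1a, with the 48 h and control ranges again overlapping. At 48 h replicate 1 was below and replicates 3 and 4 above all controls. Its mean was 178.8 ± 61.7 FPKM at 1.5 h, 2187 ± 104 FPKM at 12 h and 3.543 ± 1.49 FPKM at 48 h, against 3.098 ± 0.755 FPKM in controls. The 1.5 h mean was 57.71 times, the 12 h mean 705.9 times and the 48 h mean 1.144 times the control mean.

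**Figure D1:**
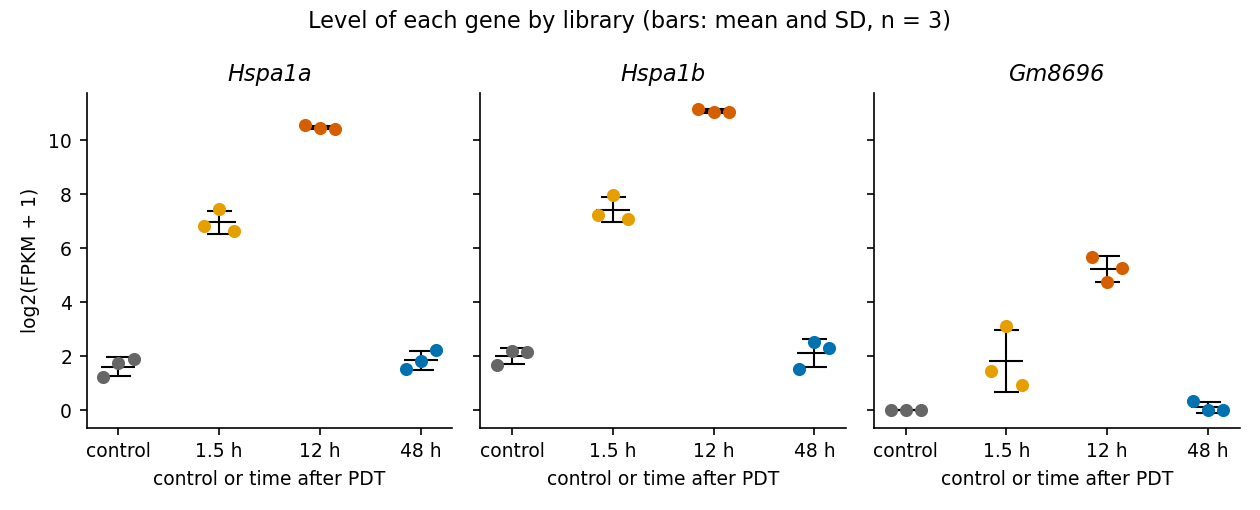
Level of Hspa1a, Hspa1b and Gm8696 as log2(FPKM + 1) in each of the 12 libraries (points), by group, with the mean and SD of 3 libraries as bars. The 12 h libraries are the highest in all 3 panels, the 1.5 h libraries lie between them and the rest, and the 48 h libraries lie in or near the control range.

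On the log2(FPKM + 1) scale of the limma fit, the change of Hspa1a against control was 5.35 ± 0.25 at 1.5 h, 8.87 ± 0.25 at 12 h and 0.24 ± 0.25 at 48 h (SE). For Hspa1b the same changes were 5.42 ± 0.28, 9.08 ± 0.28 and 0.11 ± 0.28. The 3 comparisons share the control libraries. Because 1 FPKM was added and the control levels are low, these changes understate the ratios of FPKM. At 12 h against 1.5 h the changes were 3.52 for Hspa1a and 3.66 for Hspa1b, and at 48 h against 12 h they were -8.63 and -8.97. Within the 1.5 h group, replicate 2 was the highest for both genes, and it is the library without the length trend. Without replicates 1 and 3, the 1.5 h change was 5.82 for Hspa1a and 5.95 for Hspa1b, and that at 12 h against 1.5 h was 3.05 and 3.13. Replicate 2 alone was 80.97 times the control mean for Hspa1a and 80.51 times for Hspa1b, and the 12 h means were 8.311 and 8.769 times its values. In bulk tissue, more message per cell and more cells with the message cannot be told apart.

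At 12 h the copies ranked among the most abundant messages of the brain tissue. By FPKM among nuclear genes, Hspa1a ranked 164 to 723 at 1.5 h, 4 to 5 at 12 h and 9026 to 11818 at 48 h, against 10136 to 12488 in controls. Hspa1b ranked 2 to 3 in the 12 h libraries. Together they took 0.0583% to 0.119% of all recovered reads at 1.5 h, 0.998% to 1.04% at 12 h and 0.00126% to 0.00238% at 48 h, against 0.00106% to 0.00192% in controls. In reads, Hspa1a had 65104 to 68098 at 12 h and 68 to 141 in controls. The summed level of the copies was 0.507 to 1.36 times that of Hspa8 at 1.5 h and 6.54 to 8.30 times at 12 h, against 0.0183 to 0.0283 times in controls, all as ratios of FPKM. At 48 h it was 0.0172 to 0.0265 times that of Hspa8, a range that overlaps the controls.

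**Figure D2:**
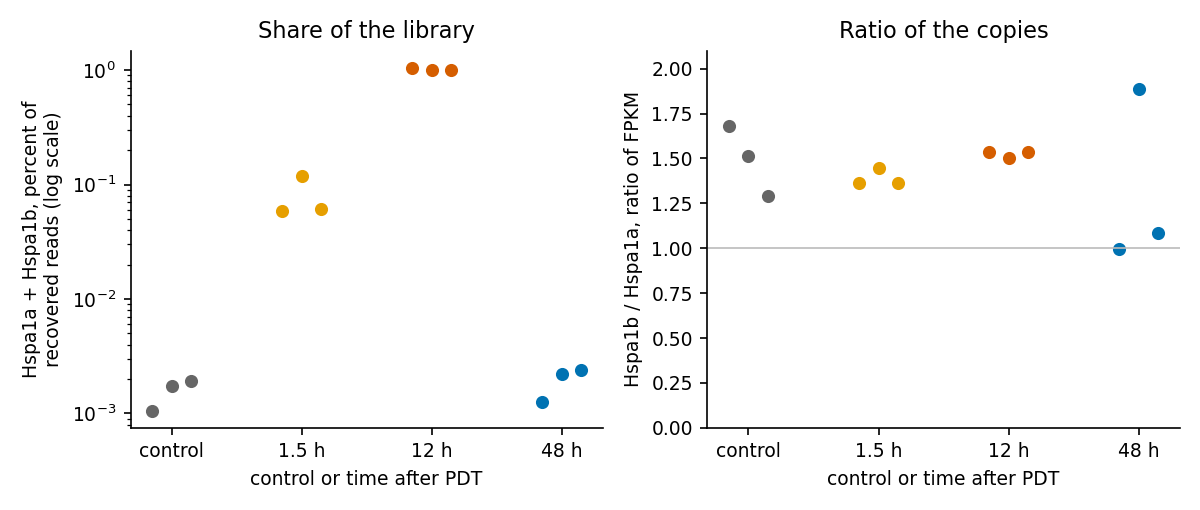
Left, the reads of Hspa1a and Hspa1b together as a percent of all recovered reads of a library, on a log axis; right, the ratio of Hspa1b to Hspa1a in FPKM, with a line at 1. Each point is a library. The share is near 1% in the 12 h libraries and below 0.003% in the 48 h and control libraries, whereas the ratio of the copies stays between 0.998 and 1.885 throughout.

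The proportion of the copies varied far less than their level. The ratio of Hspa1b to Hspa1a in FPKM was 1.361 to 1.446 at 1.5 h, 1.503 to 1.536 at 12 h and 0.998 to 1.885 at 48 h, against 1.291 to 1.681 in controls. The 12 h libraries varied least (1.525 ± 0.0191, SD, n = 3) and the 48 h libraries most (1.322 ± 0.489), on 99 to 244 reads per gene. All 1.5 h ratios were below all 12 h ratios, but both ranges lay within that of the 48 h libraries. Across the 12 libraries, log2(FPKM + 1) of the copies had a Pearson r of 0.999, a description only, since their levels follow the groups and they can share reads.

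Gm8696 was listed above 0 in every 1.5 h and 12 h library and at 0 in every control. It had 1.711, 7.793 and 0.9282 FPKM at 1.5 h, from 8, 49 and 5 reads, and 50.41, 25.74 and 37.84 FPKM at 12 h, from 292, 160 and 232 reads. At 48 h replicate 1 had 0.2773 FPKM from 2 reads and the others were listed at 0. A count of 0 allows up to 3 reads, which would be 0.442 to 0.450 FPKM in the controls, so 1.5 h replicates 1 and 3 lie close to that limit. Such limits cover counting error only, since reads are not independent molecules. No fold against the controls is given. Gm8696 was highest at 1.5 h in replicate 2, as were Hspa1a and Hspa1b. Its level was 0.685% to 3.13% of that of Hspa1b at 1.5 h and 1.21% to 2.19% at 12 h.

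Snu13 is expressed in all libraries. It had 87.9, 27.89 and 60.5 FPKM at 1.5 h, 37.32, 40.48 and 43.53 FPKM at 12 h and 28.68, 43.08 and 37.44 FPKM at 48 h, against 29.52, 27.96 and 27.64 FPKM in controls. With all libraries in the fit it passed the test at no time against control (limma, Benjamini-Hochberg adjusted p = 0.109 at 1.5 h, 0.316 at 12 h and 0.569 at 48 h). Without 1.5 h replicates 1 and 3, its change was -0.02 at 1.5 h (adjusted p = 0.989) and 0.49 at 12 h (adjusted p = 0.0199). Whether reads of Snu13 or reads that run on past Hspa1b were counted in Gm8696 was not tested.

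The genes that work with HSP70 were read from a list of 53 heat shock pathway genes, which leaves out Hspa1a, Hspa1b and Gm8696. All 53 were above 0.5 FPKM in at least 3 libraries and so were among the 17664 genes tested. In what follows, a gene rose or fell where its adjusted p from limma, over all genes tested, was below 0.05. At 1.5 h against control, 4 of the 53 rose and none fell, where 0.419% of all genes tested rose and 0.136% fell. The median log2 change of the list was 0.44, against 0.02 over all genes tested. Neither this median nor the unadjusted counts below were taken without 1.5 h replicates 1 and 3, so their part in both is not known. At 12 h, 22 rose and 1 fell, where 13.3% of all genes rose and 7.9% fell, and the median was 0.45 against 0.00. At 48 h, 7 rose and 2 fell, where 7.5% rose and 5.01% fell, and the median was 0.08 against 0.00. The low count at 1.5 h is after adjustment over all genes tested. At an unadjusted p below 0.05 in limma, 29 were higher and 3 lower, and limma-voom on recovered reads called 3 and 0. The share of all genes tested was not counted at that threshold, with limma-voom or in the fits below with libraries left out. Those list counts therefore have no share to be set against. The count at 1.5 h depends on single libraries: 33 rose and 6 fell without replicate 2, and 2 rose without control replicate 1, without control replicate 2 or without both 1.5 h replicates 1 and 3. Without both of these, 12 rose and 6 fell at 48 h.

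Among the heat shock factors, the transcription factors that drive these genes, Hsf1 did not pass the test with all libraries in the fit. Its message had 11.32, 7.729 and 8.185 FPKM at 1.5 h, 7.49, 6.902 and 7.201 FPKM at 12 h and 5.85, 5.04 and 5.745 FPKM at 48 h, against 5.859, 5.451 and 6.026 FPKM in controls. Its log2 change was 0.56 ± 0.13 at 1.5 h (adjusted p = 0.0833), 0.27 ± 0.13 at 12 h (adjusted p = 0.174) and -0.05 ± 0.13 at 48 h (adjusted p = 0.849). When 1.5 h replicates 1 and 3 were left out, the change at 1.5 h was 0.37 (adjusted p = 0.396), and that of 0.27 at 12 h passed (adjusted p = 0.0289). HSF1 is known to be switched on at the protein level, which these data do not measure. Hsf2, a second factor of the family, rose at 12 h by 0.52 ± 0.12 (adjusted p = 0.0107), with 3.931 ± 0.401 FPKM at 12 h and 2.438 ± 0.271 FPKM in controls.

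Of the 9 other HSP70 family genes, none passed at 1.5 h, 3 rose at 12 h, where 13.3% of all genes tested rose, and 1 rose and 1 fell at 48 h, where 7.5% rose and 5.01% fell. A count of 1 in 9 is near those shares. Hspa8 had 518.1, 311.4 and 437.8 FPKM at 1.5 h, 458.8, 539.0 and 534.4 FPKM at 12 h and 219.0, 292.2 and 289.2 FPKM at 48 h, against 194.2, 209.1 and 249.4 FPKM in controls. All 1.5 h and 12 h libraries lay above all controls, which 14.6% and 28.2% of all genes tested showed at 1.5 h and 12 h. The change passed at 12 h (1.23 ± 0.22, adjusted p = 0.00291) but not at 1.5 h (0.93 ± 0.22, adjusted p = 0.0833). Without 1.5 h replicates 1 and 3 the 1.5 h change was 0.52, which rests on replicate 2 alone. Hspa9, the mitochondrial HSP70, rose at 12 h by 0.63 ± 0.12 (adjusted p = 0.00301). Hspa5, the HSP70 of the endoplasmic reticulum, rose at 12 h and at 48 h by 0.59 ± 0.18 and 0.64 ± 0.18, calls that were lost on leaving out single libraries (adjusted p up to 0.165 and 0.18). Hspa12a, a distant member of the family, fell at 48 h by 1.02 ± 0.25, a call lost without any 1 of the 6 libraries compared (adjusted p up to 0.0861). Hspa1l, the testis-rich paralog next to Hspa1a, 84.36% identical to its coding part, stayed between 0.356 and 1.21 FPKM in all libraries and passed at no time (adjusted p = 0.617, 0.127 and 0.125 at 1.5 h, 12 h and 48 h).

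Of the 4 genes of the list that rose at 1.5 h, 2 encode J-domain co-chaperones. Dnajb1, which encodes the HSP40 that works with cytosolic HSP70, had 87.98, 83.61 and 87.4 FPKM at 1.5 h, 267.5, 226.1 and 249.5 FPKM at 12 h and 13.18, 13.66 and 12.45 FPKM at 48 h, against 15.58, 21.56 and 24.15 FPKM in controls. It rose by 2.05 ± 0.15 at 1.5 h (adjusted p = 0.00016) and by 3.55 ± 0.15 at 12 h (adjusted p = 4.34e-07). At 48 h every library was below every control, where 22% of all genes tested had that pattern, and Dnajb1 fell by 0.58 ± 0.15 (adjusted p = 0.0301). The 1.5 h call held without replicates 1 and 3 (adjusted p = 0.0083), and with only the 1.5 h and control libraries fitted the call was lost (adjusted p = 0.0675). The call at 48 h was lost without any 48 h library or without control replicate 2 or 4 (adjusted p up to 0.126). Dnaja1, another J-domain co-chaperone of cytosolic HSP70, rose at 1.5 h by 0.90 ± 0.17 (adjusted p = 0.048), and it lost the call without replicate 1, without replicate 3 or without any control (up to 0.2), and without both replicates the change was 0.67 (0.292). Of 11 J-domain genes 5 rose at 12 h, where 13.3% of all genes tested did, among them Dnaja4 by 1.32 ± 0.12, Dnajb4 by 1.10 ± 0.13 and Dnaja1 by 1.13 ± 0.17.

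Of the 9 nucleotide exchange factors, 1 rose at 1.5 h, where 0.419% of all genes tested did. At 12 h 4 rose and Bag4 fell, where 13.3% of all genes tested rose and 7.9% fell. At 48 h 1 rose, where 7.5% did. A count of 1 in 9 at 12 h or 48 h is near those shares. Hsph1, the HSP110 that resets HSP70, had 329.8, 376.6 and 375.9 FPKM at 12 h and 37.92, 41.32 and 47.05 FPKM in controls, a rise of 3.07 ± 0.19 (adjusted p = 3.26e-06). At 1.5 h it had 76.57, 100.1 and 71.36 FPKM, above all controls, a pattern that 14.6% of all genes tested showed. It missed the threshold there (0.95 ± 0.19, adjusted p = 0.0544). Without replicates 1 and 3 the change was 1.24, which rests on replicate 2 alone and does not turn the miss into a pass. Bag3, which hands HSP70 clients to autophagy, rose at all 3 times. It had 10.06, 8.843 and 6.305 FPKM at 1.5 h, 48.46, 42.53 and 46.94 FPKM at 12 h and 13.71, 11.26 and 11.49 FPKM at 48 h, against 2.864, 3.096 and 3.706 FPKM in controls. Its log2 changes were 1.14 ± 0.16, 3.48 ± 0.16 and 1.64 ± 0.16 (adjusted p = 0.0168, 5.68e-07 and 7.9e-05). The call at 1.5 h was lost without control replicate 1 (adjusted p = 0.0967) or 2 (0.0852), and with only the 1.5 h and control libraries fitted (0.279). The change was 1.23 without 1.5 h replicates 1 and 3 (adjusted p = 0.022).

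HSP90 chaperones take clients over from HSP70. Of 11 genes for HSP90 and the proteins between it and HSP70, 3 rose at 12 h, where 13.3% of all genes tested rose, and none passed at 1.5 h or 48 h. Hsp90aa1, the inducible HSP90, had 506.7, 640.7 and 600.8 FPKM at 12 h and 245.6, 261.0 and 271.7 FPKM in controls (1.16 ± 0.19, adjusted p = 0.00172). The other 2 that rose, Stip1, the adaptor between both chaperones (0.64 ± 0.17), and Hsp90ab1, the constitutive HSP90 (0.57 ± 0.18), lost their calls on leaving out single libraries (adjusted p up to 0.0808 and 0.191).

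Small heat shock proteins and other chaperones rose in 6 of 9 at 12 h and in 5 of 9 at 48 h, where 13.3% and 7.5% of all genes tested rose. Hspb1, which encodes HSP27 and binds unfolded protein without ATP, had 38.97, 25.9 and 29.25 FPKM at 1.5 h, 121.4, 102.0 and 145.8 FPKM at 12 h and 53.38, 48.0 and 96.88 FPKM at 48 h, against 3.754, 5.001 and 5.381 FPKM in controls. Its log2 changes were 2.49 ± 0.26, 4.44 ± 0.26 and 3.49 ± 0.26 (adjusted p = 0.00311, 2.49e-06 and 1.29e-05). Without 1.5 h replicates 1 and 3, the 1.5 h change was 2.25 and the call was lost (adjusted p = 0.079). The others that rose at 12 h were Serpinh1, the collagen chaperone HSP47 (2.32 ± 0.24), the mitochondrial chaperonins Hspe1 and Hspd1 (2.09 ± 0.38 and 1.35 ± 0.17), and the small heat shock genes Hspb8 (1.50 ± 0.22) and Hspb6 (0.98 ± 0.20).

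At 48 h, when Hspa1a and Hspa1b were again at a few FPKM, 5 of the 7 pathway genes that rose against control were of this last role. Hspb6 had 7.476, 7.271 and 8.059 FPKM at 48 h, against 1.734, 0.8872 and 1.045 FPKM in controls, and rose by 1.97 ± 0.20 (adjusted p = 0.000107). Hspb8 rose by 1.84 ± 0.22, Serpinh1 by 1.48 ± 0.24 and Hspb3 by 1.07 ± 0.25 at that time. Hspb3 lost its call without 48 h replicate 3 or control replicate 4 (adjusted p = 0.0649 and 0.0632). At 48 h against 12 h, 17 of the 53 genes fell and Hspb6 alone rose, where 9.73% of all genes tested fell and 5.88% rose. The rise of Hspb6 was 0.99 ± 0.20 (adjusted p = 0.00664), and all its 48 h libraries were above all its 12 h libraries, which 21.4% of all genes tested also showed. Dnajb1 changed by -4.14 ± 0.15 and Hsph1 by -2.64 ± 0.19 in that comparison. At 12 h against 1.5 h, 16 of the 53 rose and 5 fell, where 16.9% and 16.3% of all genes did.

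Markers of other cell types differed between groups as well, and none of them was listed at 0 in all libraries. The summed level of 4 endothelial markers was 14.1 to 23.6 FPKM at 1.5 h, 46.4 to 59.4 at 12 h and 43.2 to 66.0 at 48 h, against 19.7 to 22.9 FPKM in controls. That of 5 microglia markers was 102 to 238 FPKM at 1.5 h, 99.1 to 102 at 12 h and 323 to 353 at 48 h, against 100 to 104 FPKM in controls. Markers of neutrophils and monocytes summed to 0.670 to 17.4, 5.07 to 20.3 and 0.355 to 2.83 FPKM at 1.5 h, 12 h and 48 h, and to 0.142 to 0.470 FPKM in controls. Those of red blood cells summed to 11.2 to 347, 8.76 to 53.9 and 1.54 to 9.20 FPKM at 1.5 h, 12 h and 48 h, and to 0.442 to 28.9 FPKM in controls. The 4 choroid plexus markers ranged as widely within groups, with 2.83 to 442 FPKM at 1.5 h, 299 to 715 at 12 h and 32.6 to 991 at 48 h, against 424 to 669 FPKM in controls. The oligodendrocyte markers summed to 678 to 1117, 1103 to 1351 and 420 to 1016 FPKM at 1.5 h, 12 h and 48 h, and to 668 to 782 FPKM in controls. All 12 h libraries were above all controls, a pattern that 28.2% of all genes tested showed singly. The astrocyte markers summed to 117 to 262, 240 to 282 and 151 to 194 FPKM at these times and to 230 to 244 FPKM in controls. All 48 h libraries were below all controls, as were those of 22% of all genes tested. At 1.5 h the skeletal muscle markers summed to 6.47 to 18.5 FPKM and the skin markers to 7.63 to 11.7 FPKM, against 4.66 to 5.53 and 5.35 to 6.56 FPKM in controls. All 1.5 h libraries were above all controls in both, a pattern that 14.6% of all genes tested showed singly. The ranges at 1.5 h include replicates 1 and 3, and were not taken without them. At 12 h and 48 h the ranges were 5.47 to 6.89 and 3.94 to 6.84 FPKM for muscle and 4.65 to 5.83 and 4.49 to 5.97 FPKM for skin. The neuron markers summed to 785 to 974, 710 to 844 and 499 to 814 FPKM at 1.5 h, 12 h and 48 h, and to 705 to 856 FPKM in controls. Their part in the changes of Hspa1a and Hspa1b and of the chaperone genes was not tested.

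**Figure D3:**
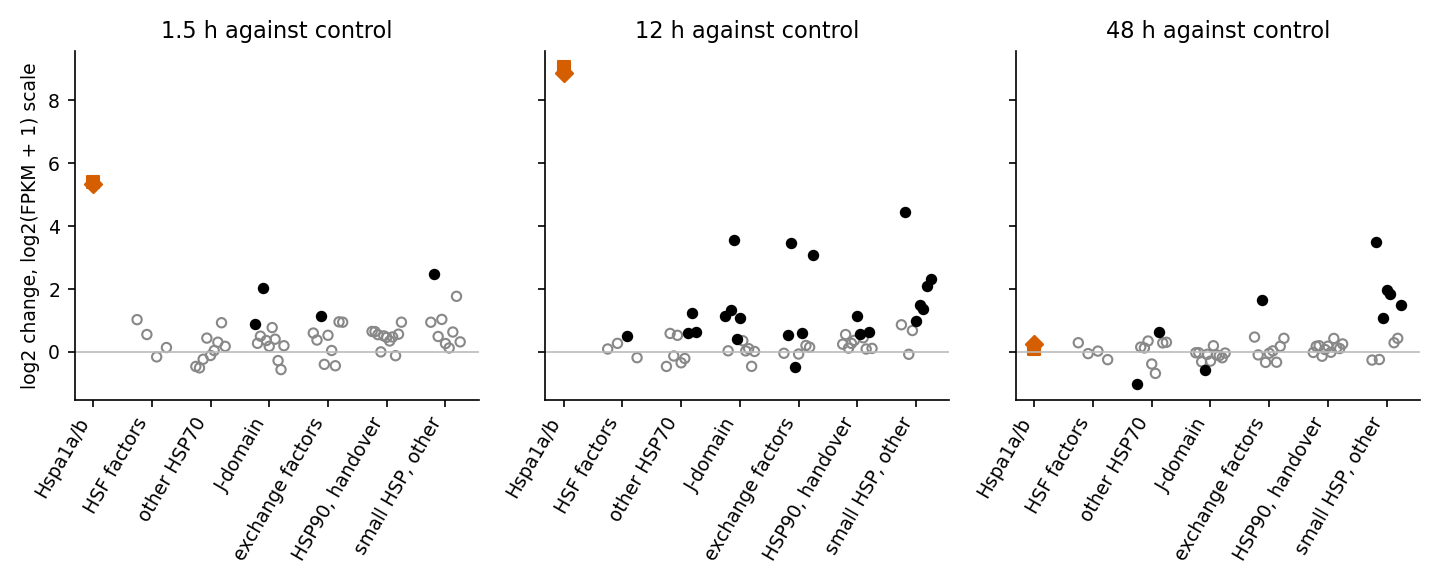
Log2 change against control, on the log2(FPKM + 1) scale, of Hspa1a (diamond) and Hspa1b (square) and of 53 other heat shock pathway genes by role, at 1.5 h, 12 h and 48 h. Filled points passed the test (limma, adjusted p below 0.05) and open points did not. At 12 h 22 genes rose, the highest being Hspb1 at 4.44, below Hspa1a at 8.87. At 48 h Hspb1 was again the highest of the list, at 3.49.

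A promoter window was at hand for 41 of the 53 genes, with up to 3 windows a gene. GAANNTTC was present in 6 of the 18 that rose at 12 h, namely Dnaja1, Dnaja4, Hspb1, Hspb6, Hspd1 and Hspe1, and in 4 of the 23 that were not called. Over all genes with a window, 7.73% had it in any of theirs. Dnajb1, Hsph1 and Bag3, with rises of over 3 on the log2 scale at 12 h, had none in these letters.

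The neighbourhood of the copies was looked at next, since Gm8696 is one of their neighbours. Within 100 kb of Hspa1a or Hspa1b lie 25 other genes of the table, of which 11 were tested and 6 were listed at 0 in all libraries. Among those at 0 is Gm20481, which overlaps Hspa1a on the plus strand at chr17:34969912-34972136. Strandedness is not given in the sources used here, so reads of a gene and of its antisense partner cannot be told apart. None of the 11 passed the test at 1.5 h, where limma gave 3 higher and 0 lower at an unadjusted p below 0.05 and limma-voom called 0. Without 1.5 h replicate 2, 5 rose there. The share of all genes tested was not counted at that threshold, with limma-voom or in that fit. At 12 h 2 rose and 1 fell, where 13.3% of all genes tested rose and 7.9% fell, and at 48 h 1 rose, where 7.5% did. The counts at 12 h and 48 h are near those shares.

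1110038B12Rik, annotated as a processed transcript, is the nearest of the tested neighbours beyond Hspa1b, 3964 bases from its 3′ end and on the same strand. It had 18.46, 8.216 and 8.446 FPKM at 1.5 h, 43.05, 23.67 and 34.19 FPKM at 12 h and 7.546, 8.988 and 8.144 FPKM at 48 h, against 4.817, 5.068 and 5.084 FPKM in controls. Every treated library was above every control, a pattern that 14.6%, 28.2% and 21.1% of all genes tested showed at 1.5 h, 12 h and 48 h. It rose by 2.49 ± 0.27 at 12 h (adjusted p = 0.000126) and fell by 1.87 ± 0.27 at 48 h against 12 h (adjusted p = 0.00119). At 12 h its order over the libraries was that of Gm8696, with replicate 1 highest and replicate 2 lowest, whereas Hspa1a varied little among them. At 1.5 h the orders differed, with replicate 2 the lowest for 1110038B12Rik and the highest for Gm8696. The same 12 h order was also that of Clic1, Dnajb1 and Bag3, but not of Hsph1 or Hspa8. Its share over all genes tested was not counted. Clic1, an intracellular chloride channel gene further off on the plus strand, had 8.192, 3.846 and 6.476 FPKM at 1.5 h, 17.62, 14.12 and 15.15 FPKM at 12 h and 34.92, 32.43 and 29.57 FPKM at 48 h, against 3.564, 3.339 and 3.529 FPKM in controls. It rose by 1.89 ± 0.20 at 12 h (adjusted p = 8.94e-05) and by 2.89 ± 0.20 at 48 h (adjusted p = 7.29e-06). Zbtb12, a zinc finger gene, fell at 12 h by 0.74 ± 0.15 (adjusted p = 0.0047), with 0.7238, 1.288 and 0.7772 FPKM at 12 h against 1.83, 2.3 and 2.463 FPKM in controls.

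**Figure D4:**
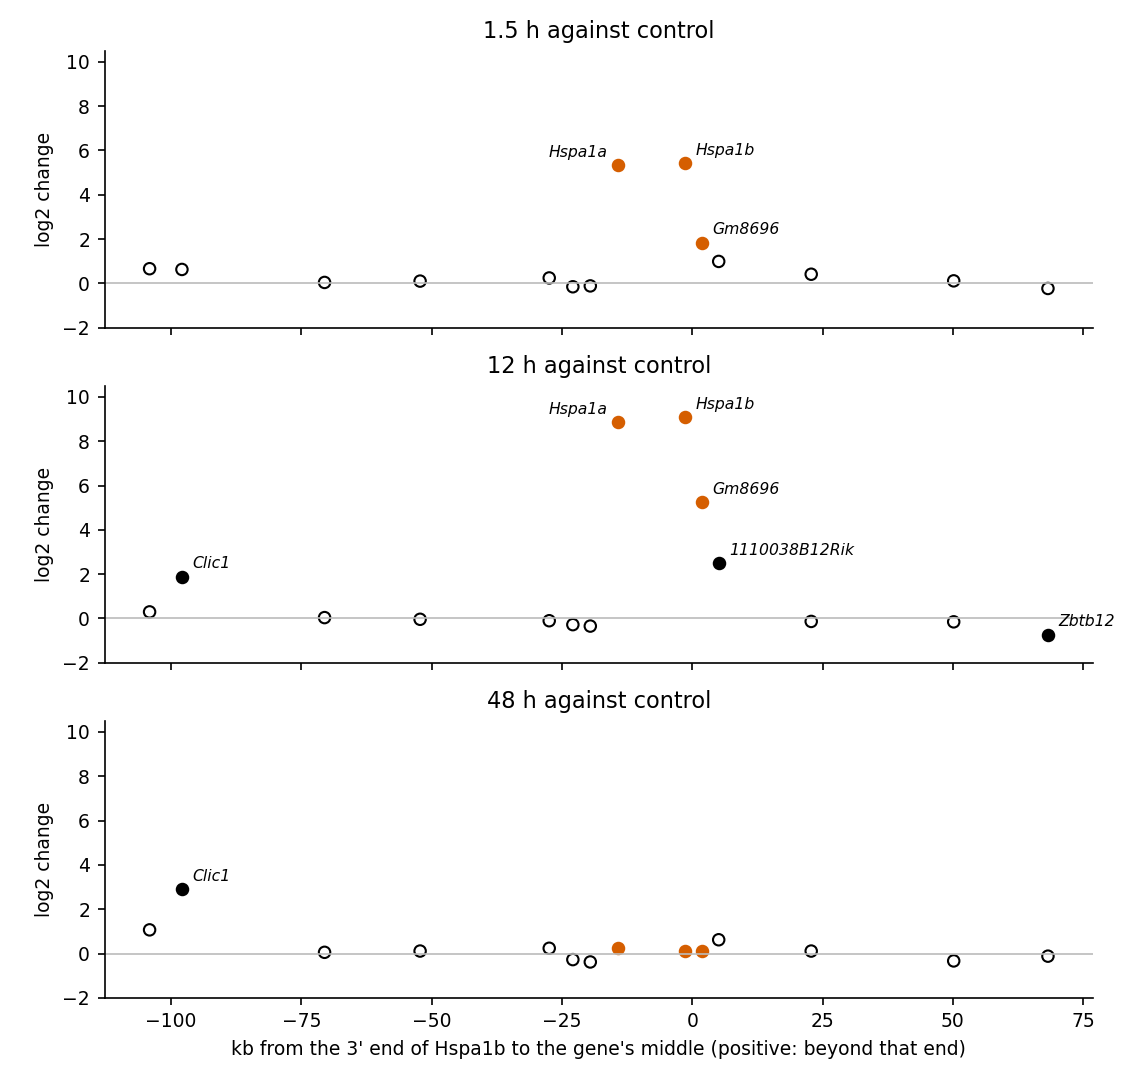
Log2 change against control, on the log2(FPKM + 1) scale, of the tested genes within 100 kb of Hspa1a or Hspa1b, by distance in kb from the 3′ end of Hspa1b to the middle of each gene, at 1.5 h, 12 h and 48 h. Orange points are Hspa1a, Hspa1b and Gm8696, black points are neighbours that passed the test and open points are the others. The value of Gm8696 depends on the 1 FPKM that was added, since its controls are at 0, and is no measure of its fold. At 12 h 1110038B12Rik (2.49) and Clic1 (1.89) are the neighbours above the rest.

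The genes whose levels followed those of the copies most closely over the 12 libraries were ranked by Pearson r with the mean log2(FPKM + 1) of Hspa1a and Hspa1b, among 13712 genes with a mean of at least 1 FPKM. The 10 highest were Dnajb1 (r = 0.986), Dusp14 (0.982), Slc25a25 (0.969), Srf (0.966), Crybb3 (0.965), Arc (0.963), Gm12346 (0.962), Trit1 (0.961), Nefl (0.959) and Zbtb17 (0.959). These r values describe 12 libraries that fall into 4 groups and carry no test. Dusp14, a phosphatase gene of the MAP kinase pathways, had 62.1 to 72.8 FPKM at 1.5 h, 132 to 154 at 12 h and 18.8 to 36.9 at 48 h, against 23.2 to 28.9 FPKM in controls. Arc, an activity-regulated gene of neurons, had 432 to 704 FPKM at 1.5 h, 1308 to 1535 at 12 h and 72.3 to 193 at 48 h, against 74.4 to 189 FPKM in controls. Srf, the serum response factor, had 31.9 to 33.6 FPKM at 1.5 h, 47.2 to 50.6 at 12 h and 21.2 to 27.2 at 48 h, against 19.0 to 19.8 FPKM in controls. Nefl, the light neurofilament gene, had 125 to 154 FPKM at 12 h and 76.8 to 83.0 FPKM in controls, a far smaller span at a like r.

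**Figure D5:**
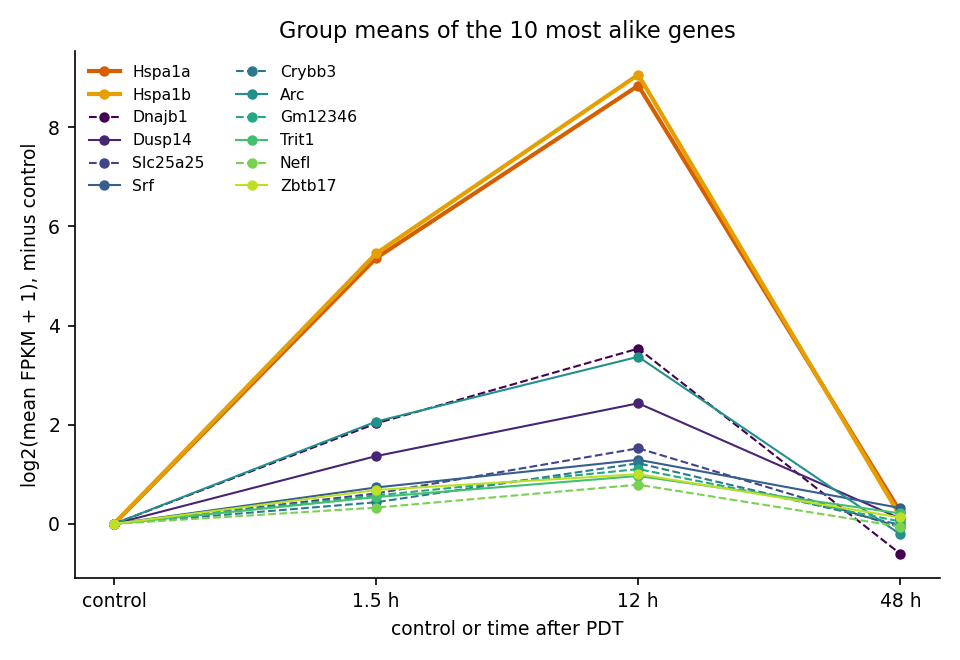
Group means, as log2(mean FPKM + 1) minus that of the controls, of Hspa1a and Hspa1b (thick lines) and of the 10 genes most like them, in controls and at 1.5 h, 12 h and 48 h. Every line is highest at 12 h, which the choice of genes by r over these same libraries favours. The span is widest for Hspa1a and Hspa1b. At 48 h each line lies nearer the control level than at 12 h. Dnajb1 is below that level (mean 13.09 FPKM against 20.43 FPKM in controls) and Srf above it (24.5 FPKM against 19.43 FPKM).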

How the data were processed

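Values were taken from 1 table of 54532 genes that the authors deposited as FPKM per library, with gene length and position beside them per the file headers. Bowtie 0.12.2 and mm8 are named in the submitters' processing notes, while the counter and strandedness are not given in the sources used here. Of 54495 identifiers shared with GENCODE M21, 98.33% had the same GRCm38 start and end, so positions are given on GRCm38. In each library 100% of values, once multiplied by gene length, were whole numbers of reads within 0.05 of a read, which gave recovered reads of 15348579 to 17444654 per library, and the authors' scaling equalled a median-of-ratios factor over 18170 genes. The 12 h column whose number matches no title of its group was kept as an unnumbered replicate.

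The filter kept 17664 genes that exceeded 0.5 FPKM in 3 or more libraries, all 3 members included. After adding 1 and taking log2, limma (version 3.58.1, R version 4.3.3) was fitted once over the 4 groups, with a variance trend and no block, and p-values were adjusted by Benjamini-Hochberg. The fit was also run on simulated reads with 200 genes changed at 12 h, a single dispersion and no length trend. That run does not cover the spread of the 1.5 h libraries. Fold changes on this scale understate those of low genes. Same-numbered libraries of different groups were not treated as pairs. Their deviations from the group means had a median correlation of -0.004 over 11 pairs. The members and all lists were chosen with earlier results of these data known. Genes are named by rule: the members, up to 4 genes per role and comparison with the smallest p plus 7 fixed chaperone genes, tested neighbours, and the 10 highest correlations. Examples outside it were chosen after their values were seen. Alignments used Biopython 1.88. Alternatives covered the pseudocount, filter, length trend, samples fitted, single libraries, the replicate block, library scaling and limma-voom.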

Additional observations from a re-analysis of the deposited data

How the results depend on the processing

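Over 22 counts and changes and their 314 alternative values, 253 stayed within the limits set (1.5 times for counts, 1 SD for Hspa1a and Hspa1b). The other 61 moved. A change of sign within 1 SD counted as staying, as for Hspa1b at 48 h, which reached -0.09 with single libraries left out. No alternative turned the direction of Hspa1a or Hspa1b at 1.5 h or 12 h. The share of all genes tested that was called was counted for the main fit only.

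With a pseudocount of 0.1, Hspa1a changed by 5.86 at 1.5 h and 9.39 at 12 h, and Hspa1b by 9.45 at 12 h. Without 1.5 h replicates 1 and 3, the libraries with the length trend, the 1.5 h changes were 5.82 and 5.95. With limma-voom on recovered reads, chosen after seeing the data, Hspa1a changed by 5.92 and 9.45 and Hspa1b by 5.82 and 9.49 at 1.5 h and 12 h. Taking the sum of both copies gave 5.39, 8.99 and 0.18 at 1.5 h, 12 h and 48 h. Leaving out single libraries gave 5.11 to 5.51 and 8.67 to 9.01 for Hspa1a and 5.16 to 5.59 and 8.91 to 9.16 for Hspa1b at 1.5 h and 12 h, and 0.04 to 0.40 and -0.09 to 0.40 at 48 h.

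For the pathway list at 1.5 h (4 rose), 1 rose with only these groups fitted, 2 without 1.5 h replicates 1 and 3, and 2 with scaling by library totals, an alternative also chosen after seeing the data. Leaving out single libraries gave 2 to 33 that rose and 0 to 6 that fell, the highest without 1.5 h replicate 2, and 0 to 5 neighbours that rose, 5 without that replicate; control replicates 1 and 2 gave 2. At 12 h (22 rose, 1 fell), 3 fell with only these groups fitted and 3 without 1.5 h replicates 1 and 3. Single libraries gave 18 to 20 and 0 to 1, with 0 without 12 h replicate 2 or control replicate 2, and 1 to 2 neighbours that fell, 2 without control replicate 4. At 48 h (7 rose, 2 fell), 12 rose and 6 fell without 1.5 h replicates 1 and 3, 4 fell after length correction and 0 with scaling by totals. Single libraries gave 5 to 6 and 0 to 1 (every 48 h library and every control). Neighbours that rose at 48 h (1) were 2 after length correction, 3 with only these groups, 3 without 1.5 h replicates 1 and 3, 2 with totals and 2 with voom. Those that fell (0) were 1 without the filter, 1 with only these groups and 2 without the 1.5 h replicates.

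At 12 h against 1.5 h (16 rose, 5 fell), 10 rose and 0 fell with only these groups, 2 fell without the filter and 1 without 1.5 h replicates 1 and 3. Single libraries gave 12 to 19 and 0 to 13, every 1.5 h and 12 h library moving the second count. Without 1.5 h replicates 1 and 3, Hspa12a changed by -0.76 and Hspbp1 by 0.0024 in that comparison, against their signs with them. At 48 h against 12 h (1 rose, 17 fell), 2 rose without those replicates and 2 with totals, and single libraries left 10 to 17 that fell, 10 without 12 h replicate 2. In every case the cause was not tested.

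The main fit did not pair the libraries by number (in 11 pairs of same-numbered libraries, deviations from the group means had correlations of -0.264 to 0.156, median -0.004). With the replicate block, over 11 libraries, the list had 1 that rose at 1.5 h, 11 that rose and 0 that fell at 12 h, 0 that fell at 48 h, 9 that rose and 0 that fell at 12 h against 1.5 h and 5 that fell at 48 h against 12 h, and 0 neighbours fell at 12 h. With scaling by library totals, the typical gene shifted: the median over all tested genes was -0.13 for 1.5 h against control and 0.12 for 48 h against 12 h in log2, against 0.02 and 0.01 as reported. The planned negative-binomial tests on recovered reads were not run, and limma-voom and scaling by library totals on those reads were used in their place. With 3 libraries a group and 68 to 141 reads for Hspa1a in controls, counting error alone is wide at the low end, and shared reads leave the split between the copies, and possibly their sum, uncertain.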
